A study of Mus musculus with 8 samples.

Results

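The nuclear genes for the subunits of respiratory complexes I, II and III and of ATP synthase were followed in RNA of the mouse lateral septum. Members were chosen by symbol (Nduf, Sdh, Uqcr and Atp5 names, leaving out assembly factors and pseudogene symbols) and by a level of at least 1 TPM (a gene's transcripts as a share of the library after scaling for gene length, so that levels can be compared between genes) in at least 2 of 8 libraries. All 68 symbols that matched by name passed, out of 14365 genes that passed the same filter. The least abundant member, Ndufa4l2, lay between 0.693 and 2.29 TPM, and the next, Atp5s, between 18.2 and 23.6 TPM, so no member sat just outside the filter.

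The libraries came from the PhosphoTrap experiment on C57Bl6J mice, in which ribosomes carrying phosphorylated S6 (pS6), a mark that rises in active neurons, are immunoprecipitated from tissue homogenate and their RNA is sequenced. There were 4 groups of 2 pools, each pool holding the septal tissue of 4 to 6 mice: RNA saved before the precipitation (input) and precipitated RNA (IP), from home-cage mice (naïve) and from mice restrained in a flexible cone for 1 h (restraint stress, RS). The labels place death 1 h after restraint, whereas the methods give no interval. The labels name no transgene, animals of the study were of both sexes and 8 to 20 weeks old, the antibody was polyclonal, and the labels speak of 3 replicates per group, of which 2 were analysed here. The labels describe the replicates as separate pools of mice, so p-values measure the spread between pools.

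Complex I (NADH dehydrogenase) passes electrons from NADH to ubiquinone through a matrix arm that holds the redox centres and a membrane arm that pumps protons. Complex II (succinate dehydrogenase) feeds electrons from succinate, complex III passes them on to cytochrome c, and ATP synthase uses the proton gradient to make ATP. Each complex mixes a few large catalytic or redox subunits with many small accessory ones, and neurons depend on this machinery to restore ion gradients after firing.

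As a share of all TPM, the 68 genes together took 5.16% and 5.11% in the naïve input pools, 3.82% and 4.21% in RS input, 7.92% and 7.86% in naïve IP, and 7.79% and 7.62% in RS IP. Both IP groups lay above both input groups, and RS input lay below naïve input, with no overlap. The 37 complex I genes summed to 23144 and 23022 TPM in naïve input, 17293 and 18806 in RS input, 35839 and 35371 in naïve IP, and 34886 and 34358 in RS IP. In ATP synthase (16 genes) and complex III (8 genes) both IP groups likewise lay above naïve input and RS input was lowest, with 18555 and 18404 TPM in naïve input against 28045 and 28009 in naïve IP for the former. Complex II (4 genes) was the exception: its sum was 2851 and 2842 TPM in naïve input, 2902 and 2848 in RS input, 2594 and 2643 in naïve IP, and 2580.5 and 2599.9 in RS IP, so that here the IP lay below the input on the TPM scale.

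**Figure D1:**
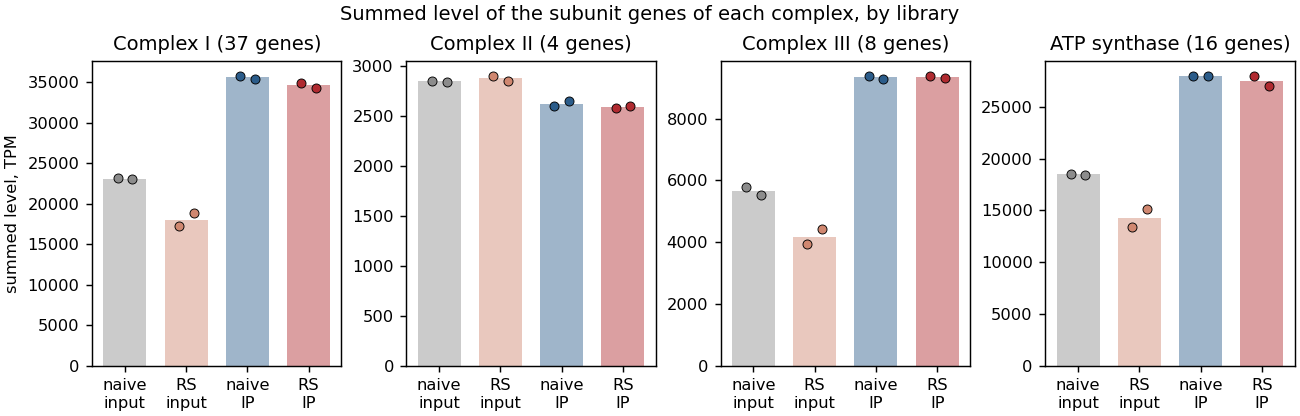
Summed level of the subunit genes of each complex in TPM (vertical axes start at 0) for the 4 groups; points are the 2 pools and bars their mean. Complexes I and III and ATP synthase are highest in both IP groups and lowest in RS input, whereas complex II is slightly lower in IP.

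To ask which subunit transcripts were enriched with pS6 ribosomes, IP was compared with input within each condition, using limma on log2(TPM + 1) over all 14365 genes with Benjamini-Hochberg adjustment (called below 0.05). In naïve mice 50 of the 68 members were called higher in IP and 11 lower, where 17.4% of all genes were called higher and 49.2% lower. In RS mice 53 were higher and 10 lower, against 17.8% and 54.9% of all genes. The median log2 change of the members was 0.60 in naïve and 0.97 in RS mice, and that of all genes was -0.32 and -0.42. Changes of at least 2-fold were reached by 13 members in naïve and 33 in RS mice, all of them upward. The share of all genes past that mark was not counted, so these counts have no background beside them. Scaled by median-of-ratios size factors, 57 members were higher and 7 lower in naïve mice and 58 and 3 in RS mice, with 30.9% and 33.4% of all genes higher and 28.7% and 31.2% lower. The 3 still lower in RS mice were Sdha, Uqcrc1 and Uqcrc2. In bulk tissue fewer cells of a type and less RNA per cell cannot be told apart, which holds for every comparison given here.

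The core subunits of the complex I matrix arm, which bind FMN and the iron-sulfur clusters, moved in both directions on the TPM scale. Ndufs1, the largest core subunit, measured 139.9 and 155 TPM in naïve input, 182 and 173 in RS input, 104 and 107 in naïve IP, and 115 and 115 in RS IP. Every IP pool was below every input pool, and the log2 change was -0.48 ± 0.06 (SE, n = 2 pools per group) in naïve and -0.62 ± 0.06 in RS mice (limma adjusted p = 2.6e-04 and 4.4e-05). Under the other scaling Ndufs1 stood at -0.096 and -0.11 and was called in neither condition, and in RS mice 4 core subunits were then higher and 0 lower. Ndufv1, which carries FMN and the NADH site, fell by 0.27 and 0.44 but came out positive (0.11 and 0.071, not called) under that scaling. The 4 that rose were Ndufv2 (0.50 and 0.66), Ndufs8 (0.25 and 0.48), Ndufs7 (0.23 and 0.42) and Ndufs3 (0.24 and 0.34), with the naïve value first, of which Ndufs7 was at -0.0020 and -0.036 once a trend with length and GC content was removed.

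Accessory subunits of complex I rose more uniformly. In the matrix arm 9 of 10 were called higher and 1 lower in each condition, with medians of 0.76 in naïve and 1.29 in RS mice, and in the membrane arm 17 of 19 were higher and 1 lower in naïve mice and 18 and 1 in RS mice, with medians of 0.82 and 1.26. Ndufa3, a small membrane-arm subunit, gave 1709 and 1650.2 TPM in naïve input, 1028 and 1279.8 in RS input, 3593 and 3584 in naïve IP, and 3712 and 3626 in RS IP. The groups did not overlap between IP and input, and the change was 1.10 ± 0.09 in naïve and 1.68 ± 0.09 in RS mice. Ndufc2, another membrane-arm subunit, rose by 1.08 and 1.50, and Ndufb4 by 1.23 and 1.47. The pair that went the other way consisted of Ndufa10 (-0.56 and -0.46, but 0.047 in RS mice under the other scaling) and Ndufa9 (-0.25 and -0.23), large accessory subunits of the membrane and matrix arm. Under the other scaling Ndufa9 was called higher in both conditions (0.13 and 0.28). Ndufa8 was at 0.11 (adjusted p = 0.052) in naïve mice and called higher by 0.26 in RS mice, but it was called higher in naïve mice as well under the other scaling (0.49) and lower in RS mice with the length and GC trend removed (-0.13).

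Ndufb4c rose along with Ndufb4, by 1.06 and 1.66. All 390 bases of its single-exon transcript, annotated as a processed pseudogene in GENCODE and as protein coding in RefSeq, matched part of the 971-base Ndufb4 transcript. Reads from those shared bases cannot be assigned to 1 gene of the pair, so the split of the values is uncertain. Ndufv3, which sits near the NADH site, measured 417 and 445 TPM in naïve input, 264 and 309 in RS input, 895 and 894 in naïve IP, and 879 and 908 in RS IP. The IP pools of both conditions lay together and far above the inputs, of which RS was the lower, and the change was 1.05 ± 0.07 and 1.64 ± 0.07 (adjusted p = 1.3e-05 and 1.3e-06).

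Complex II followed no common direction, with 1 gene higher and 2 lower in naïve mice and 1 and 1 in RS mice (2 and 1, then 3 and 1, under the other scaling). Sdha, the flavoprotein that oxidises succinate, was at 676 and 662 TPM in naïve input, 873 and 808 in RS input, 414 and 427 in naïve IP, and 454 and 449.9 in RS IP. Its input level was higher in RS than in naïve mice, both IP groups lay below both inputs, and the change was -0.67 ± 0.05 in naïve and -0.89 ± 0.05 in RS mice (adjusted p = 1.5e-05 and 2.4e-06). Sdhb, the iron-sulfur subunit, was higher in IP by 0.15 and 0.14. Of the membrane anchors, Sdhc was lower in naïve mice (-0.25, adjusted p = 0.0027) and at -0.07 in RS mice (adjusted p = 0.24), and Sdhd passed in neither (-0.01 and 0.06). Under the other scaling Sdhc came out at 0.13 (not called) and 0.44 (called) and Sdhd at 0.37 and 0.57 (both called). With the length and GC trend removed Sdhc was higher by 0.19 and 0.52, and Sdhb was at -0.041 in RS mice.

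In complex III the core and the small subunits parted. Uqcrc2, a core protein, measured 203 and 195 TPM in naïve input, 175 and 188 in RS input, 107 and 106 in naïve IP, and 113 and 109.6 in RS IP. IP pools all lay far below input pools, with a change of -0.90 ± 0.06 in naïve, the most negative value of any member there, and -0.69 ± 0.06 in RS mice. Uqcrc1, the other core protein, was lower by the same test (-0.57 and -0.66), whereas Uqcrfs1, the Rieske iron-sulfur protein, gave -0.14 and -0.01 and was not called (0.24 and 0.50, both called, under the other scaling).

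All 5 small subunits of complex III were called higher in both conditions. Uqcrq, the ubiquinone-binding small subunit, gave 499 and 476 TPM in naïve input, 317 and 348 in RS input, 1164 and 1109 in naïve IP, and 1083 and 1102 in RS IP. IP exceeded input in every pool, by 1.22 ± 0.05 in naïve and 1.71 ± 0.05 in RS mice (adjusted p = 3.7e-06 and 5.3e-07, the smallest of any member). The others were Uqcr10 (1.01 and 1.82), Uqcrh, the hinge protein next to cytochrome c1 (0.93 and 1.46), Uqcrb (0.86 and 1.35) and Uqcr11 (0.79 and 1.40).

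ATP synthase is built of a catalytic F1 head, a peripheral stalk, a ring of c subunits and small membrane subunits. In the head, Atp5b, the catalytic beta subunit, measured 2625 and 2667 TPM in naïve input, 2759 and 2801 in RS input, 1764 and 1734 in naïve IP, and 1939 and 1922 in RS IP. These IP values were about 0.661 and 0.694 of the input means, and the change was -0.60 ± 0.03 and -0.53 ± 0.03 (adjusted p = 5.3e-06 and 3.6e-06). Atp5a1, the alpha subunit, was lower to a like degree (-0.54 and -0.56). Atp5c1, the central gamma subunit, was at 0.01 in naïve (0.39 and called under the other scaling) and higher by 0.26 in RS mice, and Atp5d, the delta subunit, was higher in both (0.49 and 0.78).

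Atp5e, the epsilon subunit at the foot of the central stalk, was at 431 and 413 TPM in naïve input, 204 and 271 in RS input, 1328 and 1293 in naïve IP, and 1269 and 1267 in RS IP. IP was above input in every pool, 3.11-fold in naïve and 5.34-fold in RS mice by group means, or 1.63 ± 0.11 and 2.43 ± 0.11 on the log2 scale (adjusted p = 1.2e-05 and 1.5e-06). Subunits of the same F1 head, present in fixed proportions in the enzyme, thus moved in opposite directions, in naïve mice under both scalings and in RS mice under the first.

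Atp5mpl, a small membrane subunit, behaved like Atp5e, with 761 and 769 TPM in naïve input, 361 and 480.1 in RS input, 2229.6 and 2281 in naïve IP, and 2333 and 2291 in RS IP. The change was 1.56 ± 0.11 and 2.47 ± 0.11, the latter being the greatest value among the 68 members. Atp5k, the e subunit that helps synthase dimers to form, was the most abundant member in both IP groups and, by its mean, in naïve input, whereas Atp5b stood above it in RS input. It gave 2758 and 2654 TPM in naïve input, 1356 and 2038 in RS input, 6123 and 6233 in naïve IP, and 6369 and 5738 in RS IP. Its RS input pools differed more from each other than those of most members, and the change was 1.19 ± 0.16 and 1.86 ± 0.16. Atp5l (0.97 and 1.56) and Atp5j2 (0.73 and 1.49) completed the membrane group, and the 4 peripheral stalk subunits (Atp5f1, Atp5h, Atp5j and Atp5o) were all called higher, with medians of 0.54 and 0.89.

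The 3 genes for the c subunit encode the same mature protein behind different import signals. Atp5g1 was higher in IP by 0.81 and 1.14 and Atp5g3 by 0.56 and 0.94. Atp5g2 stood at 406 and 423 TPM in naïve input, 214 and 272 in RS input, 447 and 445 in naïve IP, and 417 and 426 in RS IP. Its naïve IP and naïve input pools were thus close (0.10 ± 0.10, adjusted p = 0.37), and a rise of 0.80 ± 0.10 was called in RS mice, where the input was low. Under the other scaling the rise was called in both (0.49 and 1.31). These transcripts are 596 to 731 bases long, and local alignments between them covered 226 to 259 bases. Of the aligned bases 78.8% to 84.5% were identical, so some reads may be shared among the 3 genes.

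Of the symbols caught by name that are not subunits of these complexes, Ndufa4, now counted to cytochrome c oxidase, rose by 1.43 and 1.97. Atp5s, whose current name is Dmac2l and which is not counted as a subunit, gave 0.20 and 0.24 and was not called, but 0.57 and 0.72 with both called under the other scaling. Ndufa4l2 was called under neither scaling (-0.12 and 0.03, then 0.12 and 0.28), and its level near 1 TPM makes the added 1 understate its change.

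**Figure D2:**
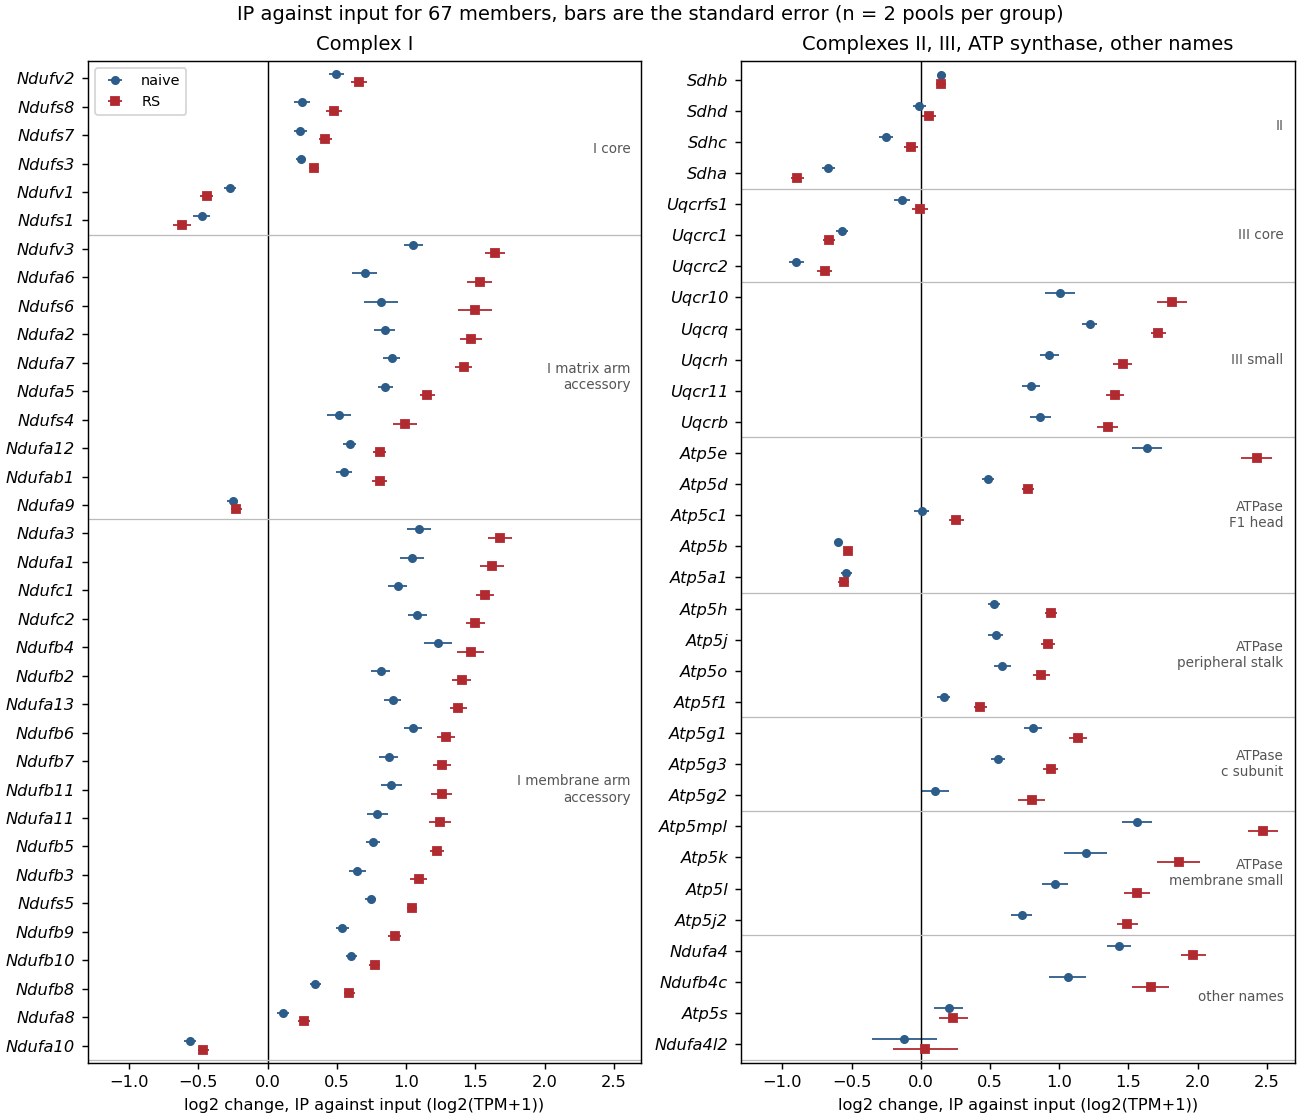
Log2 change of IP against input for 67 of the 68 members (circles naïve, squares RS, horizontal bars the limma standard error, n = 2 pools per group), arranged by position in the complex. Most accessory and membrane subunits lie right of 0, with RS further right than naïve, while Ndufs1, Ndufv1, Sdha, Uqcrc1, Uqcrc2, Atp5a1 and Atp5b lie left of 0 on the TPM scale, of which Ndufv1 came out right of 0 under median-of-ratios scaling.

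A property that the choice of members did not use, the length of the coding sequence, ordered these values. Annotated coding lengths (GENCODE M21, without the stop codon) ran from 156 bases in Atp5e to 2181 bases in Ndufs1. The coding sequences of 3 short members are printed whole to show the scale of these messages, with the start codon in capitals. Atp5e lies at chr2:174461072-174464105, Atp5mpl at chr12:111961375-111966977 and Uqcr11 at chr10:80402997-80406830 of GRCm38, all on the minus strand, and the sequences are from GENCODE.
Atp5e: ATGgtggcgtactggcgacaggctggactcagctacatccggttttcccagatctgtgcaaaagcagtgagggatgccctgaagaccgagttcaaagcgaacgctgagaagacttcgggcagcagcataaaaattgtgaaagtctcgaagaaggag
Atp5mpl: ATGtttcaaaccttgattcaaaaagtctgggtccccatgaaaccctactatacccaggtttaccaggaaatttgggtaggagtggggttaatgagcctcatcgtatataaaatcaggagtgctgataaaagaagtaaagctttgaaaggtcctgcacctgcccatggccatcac
Uqcr11: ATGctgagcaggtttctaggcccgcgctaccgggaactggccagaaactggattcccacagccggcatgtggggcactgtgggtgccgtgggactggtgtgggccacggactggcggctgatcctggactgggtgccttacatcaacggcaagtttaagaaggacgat
These encode 52, 58 and 56 residues, and the 3 genes rose in IP by 1.63, 1.56 and 0.79 in naïve mice.

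Among the 67 members with a coding sequence, the log2 change correlated with log2 coding length at Pearson r = -0.82 in naïve and -0.86 in RS mice, across genes that share the same libraries and are not independent replicates. Over all 13341 genes with a coding length the same values were -0.46 and -0.53. Of the 56 members with fewer than 1000 coding bases, 48 were higher and 1 lower (Sdhc) in naïve mice, and 51 were higher and 0 lower in RS mice. Of the 11 longer members 10 were lower in both conditions and 1, Ndufv3, was higher. Under median-of-ratios scaling 7 of the 11 were lower in naïve and 3 in RS mice. Calls among other genes went with length too. In naïve mice 61.5% of those up to 300 coding bases were called higher. The share was 55.1% above 300 and up to 450, 34.8% up to 600 and 21.6% up to 1000 bases. In RS mice these shares were 69.4%, 61.9%, 40.2% and 24.1%. Above 1000 and up to 3000 bases 58.3% of other genes were lower in naïve and 66.6% in RS mice. Ndufv3 has a second RefSeq-matched form of 312 coding bases beside that of 1404, and the files give 1 value per gene, so which form was measured is not known.

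Other genes were ordered by length as well, and the difference between members and other genes of a length class was not tested. For coding lengths up to 300 bases the median was 1.02 for 14 members and 0.51 for 301 other genes in naïve mice, and 1.65 and 0.83 in RS mice. Above 300 and up to 450 bases it was 0.82 for 20 members and 0.37 for 699 other genes in naïve mice, and above 1000 and up to 3000 bases -0.56 for 11 members and -0.44 for 7251 others. When the trend with length and GC content was removed from every comparison, 49 members were higher and 9 lower in naïve mice. In RS mice 49 were higher and 11 lower. Of all genes, 26.328% were then called higher and 28.465% lower in naïve mice, and 27.783% and 29.997% in RS mice. The median of the members exceeded that of all genes by 0.47 and 0.61, in place of 0.92 and 1.39.

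**Figure D3:**
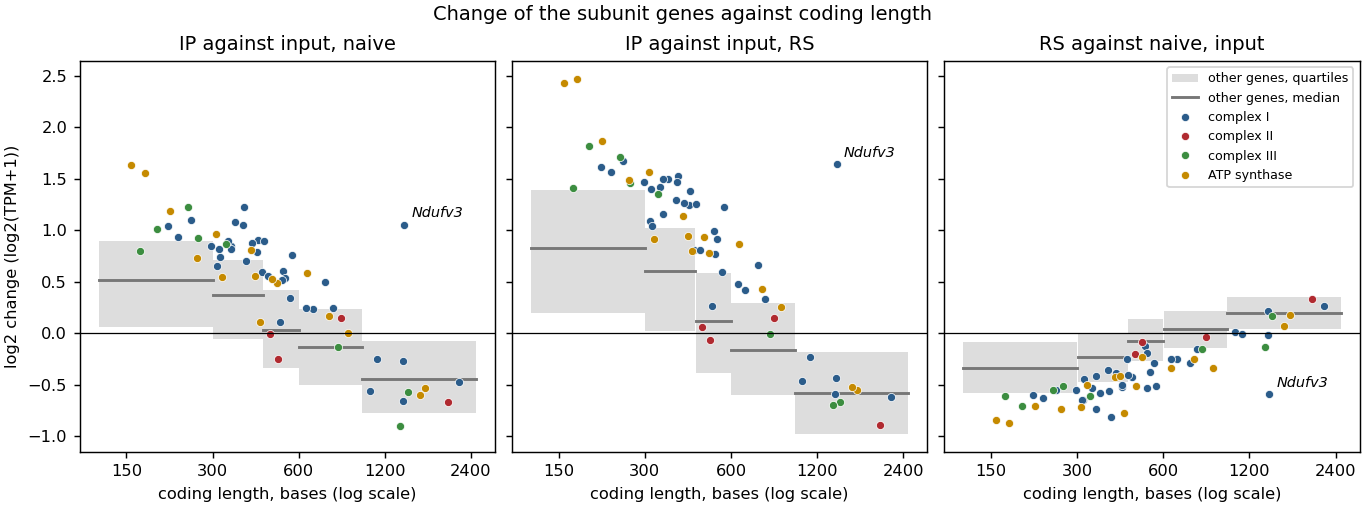
Log2 change against coding length in bases (log scale) for IP against input in naïve mice, the same in RS mice, and RS against naïve in input. Points are members coloured by complex, grey lines and bands the median and quartiles of other genes in the same length class; members slope down with length in IP and up in RS input, and Ndufv3 stands apart.

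The question of whether restraint changed these transcripts was put to each fraction separately. In input, 52 members were called lower and 5 higher in RS than in naïve mice, while 8.21% of all genes were called lower and 20.3% higher. The median change of the members was -0.42 and that of all genes 0.13. Those 5 were Sdha (0.33), Ndufs1 (0.27), Ndufv1 (0.22), Uqcrc1 (0.17) and Atp5a1 (0.17), all with more than 1000 coding bases, and under median-of-ratios scaling Sdha alone stayed called, with 58 members lower and with 7.92% of all genes higher and 12.3% lower.

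Lower values were found in every small group: 5 of 5 small complex III subunits (median -0.61), 4 of 4 small membrane subunits of ATP synthase (-0.72), 4 of 4 stalk subunits (-0.42), 9 of 10 matrix-arm and 17 of 19 membrane-arm accessory subunits of complex I (-0.53 and -0.51). Atp5h, a stalk subunit, had the steadiest decrease, from 1125 and 1134 TPM in naïve input to 763 and 821 in RS input, a change of -0.51 ± 0.04 (adjusted p = 7.9e-04). The RS pools lay well below the naïve pools. Ndufs5 (-0.44), Ndufb3 (-0.65), Uqcrq (-0.55) and Ndufb5 (-0.51) followed by the size of the moderated statistic, and Atp5mpl (-0.87), Atp5e (-0.84) and Ndufa6 (-0.81) by the size of the change. The correlation with log2 coding length had the opposite sign from that in IP (r = 0.85, 67 genes).

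The RS input pools were themselves unequal. Pool 1 was below pool 2 in 55 of 68 members and in 39.9% of all genes. The median log2 difference (pool 1 less pool 2) was -0.13 for the members and 0.04 for all genes. Other short genes leaned the same way. Of 1000 with up to 450 coding bases 636 were lower in pool 1, with a median of -0.08. Without RS input pool 1 the median change from naïve to RS input was -0.35 for the members and 0.11 for all genes. Without pool 2 these medians were -0.49 and 0.15. With the length and GC trend removed, 28 members were lower and 2 higher, where 6.65% of all genes were lower and 6.20% higher.

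In IP the same test called 0 members in either direction (limma; smallest adjusted p = 0.065, for Atp5b), with 1.98% of all genes higher and 0.327% lower. At an unadjusted p under 0.05 there were 11 members, 3 higher and 8 lower, which is near the 16.3% of all genes past that mark. Fits without either one of the RS input pools called 5 (Atp5a1 and Atp5b higher, Ndufa4, Ndufb3 and Ndufs5 lower), and the remaining alternatives called 0. The median change of the members was -0.03. Atp5a1 had the highest value, 0.15, and Ndufb4 the lowest, -0.33.

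**Figure D4:**
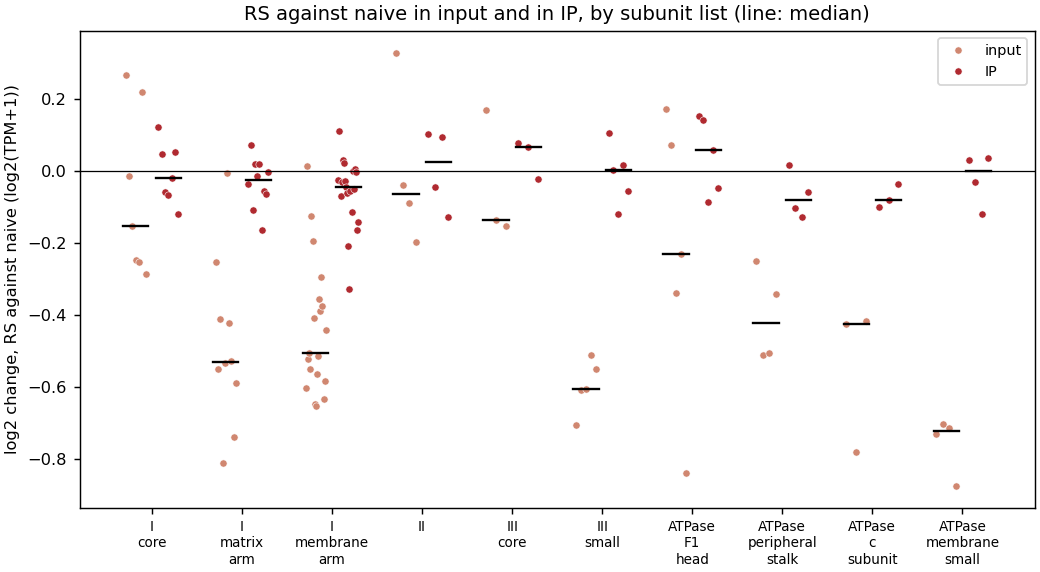
Log2 change of RS against naïve for the members in input (light points) and in IP (dark points), by subunit list, with the median as a line. Ndufa4, Ndufa4l2, Atp5s and Ndufb4c are not shown. Input values run from -0.87 to 0.33 and reach lowest in the small membrane subunits of ATP synthase, while IP values stay close to 0.

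The difference between the RS and the naïve enrichment was then tested as an interaction. It was positive and called for 33 members and negative and called for 0, where 3.29% of all genes were called positive and 3.46% negative. Atp5j2, the f subunit of the synthase membrane part, was at 774 and 758 TPM in naïve input, 421 and 505 in RS input, 1273 and 1267 in naïve IP, and 1275 and 1318 in RS IP. Its IP pools were level across the conditions and its RS input was low, which gave a difference of 0.76 ± 0.11 (adjusted p = 0.018). Ndufc1 (0.63), Uqcr11 (0.61), Uqcrq (0.49) and Atp5h (0.41) came next by the moderated statistic. Of the 33, 32 were also among those lower in RS input and higher in both IP comparisons. The interaction is computed from the same values, so part of this overlap is built in and is no separate result.

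This count depended on single libraries and on the fit. It did not fall without either RS input pool, but all calls were lost when any one other library was left out. Each such fit leaves 1 pool in a group. The members' median was 0.29 without RS input pool 1 and 0.44 without pool 2, against -0.085 and -0.13 for all genes. Without any other library the members' median ran from 0.33 to 0.38. With a replicate block for the pool from which input and IP were both taken, the count was 1 (Atp5j2). It was 4 with the length and GC trend removed and 0 without the mean-variance trend. Over all genes 0.355%, 1.09% and 0.167% were then called positive, against 3.29% in the main fit. Positive calls over all genes also became fewer in each fit that left 0 members. The members' median stayed positive in all these fits.

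**Figure D5:**
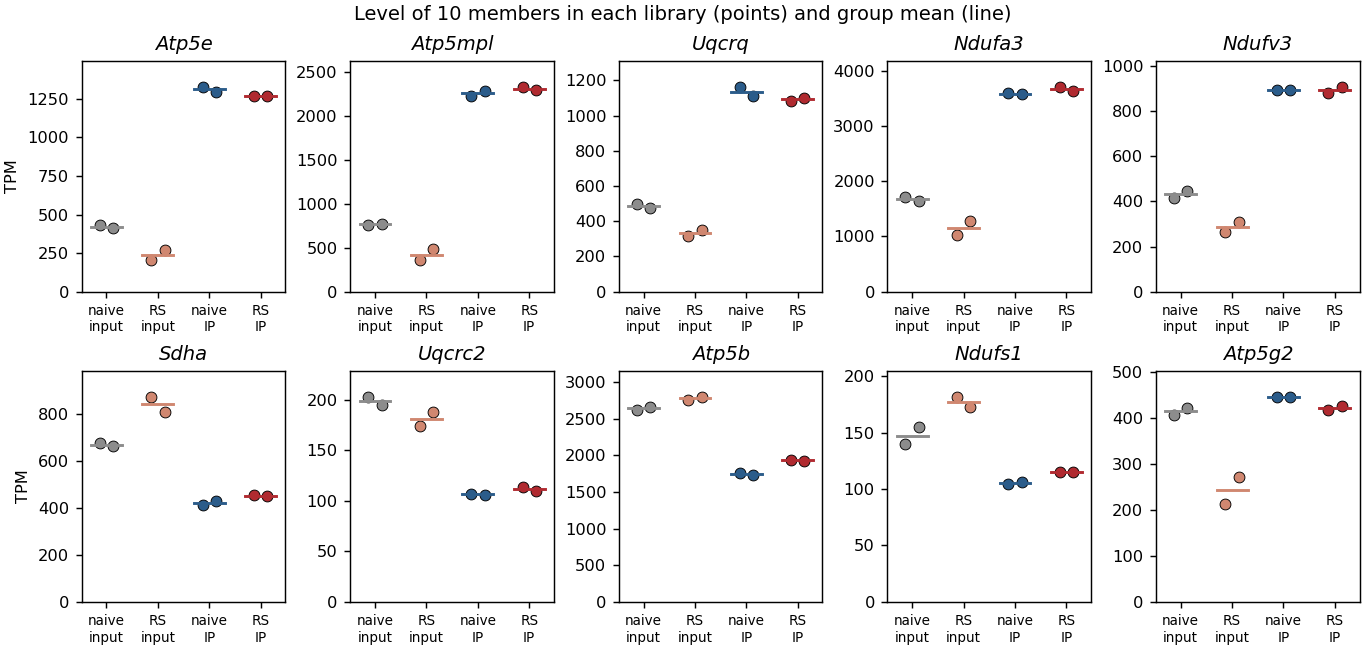
Level in TPM of 10 members in each library (points) with the group mean (line); each vertical axis starts at 0. Atp5e, Atp5mpl, Uqcrq, Ndufa3 and Ndufv3 are high in both IP groups and lowest in RS input, Sdha, Uqcrc2, Atp5b and Ndufs1 are lower in IP, and Atp5g2 is low in RS input alone.

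Genes that work with these complexes did not move as one. Usmg5, a small membrane subunit of ATP synthase that the naming rule missed, rose by 1.75 in naïve and 2.47 in RS mice, and Atpif1, the inhibitor of ATP hydrolysis by the synthase, by 0.75 and 1.38. Cyc1, cytochrome c1 of complex III, gave -0.07 (not called) and 0.14 (called), or 0.31 and 0.66 with both called under the other scaling, and Cycs, cytochrome c, rose by 0.61 and 0.74. Of 27 assembly factors 9 were higher and 11 lower in naïve mice and 10 and 9 in RS mice, or 13 and 4 and then 17 and 2 under the other scaling. Uqcc2, which helps complex III to assemble, rose by 0.88 and 1.35, whereas Acad9, a complex I assembly factor, fell by 0.96 and 1.01.

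Fuel enzymes and carriers were mostly lower on the TPM scale, a direction that depended on the scaling. Of 16 genes of the citrate cycle and pyruvate dehydrogenase 0 were higher and 15 lower in each condition (medians -0.63 and -0.70), of 16 glycolytic genes 16 were lower in naïve and 14 in RS mice (medians -0.52 and -0.51), and all 6 carriers and porins were lower in both. Under median-of-ratios scaling the citrate cycle list had 1 higher and 10 lower in naïve and 4 and 9 in RS mice, glycolysis 1 and 8 and then 6 and 4, and the carriers 1 and 2 and then 4 and 2. Among 9 regulators of mitochondrial biogenesis, 4 were lower in naïve and 6 in RS mice and 0 higher in either, or 1 and 3 lower and 1 and 2 higher under that scaling. Nrf1, the transcription factor for which the motif below is named, was lower in IP by the same test, with log2 changes of -0.67 and -1.17, of which the naïve one was not called under that scaling (-0.31). These lists were chosen with earlier results known and carry no test of their own.

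Other families of small proteins showed a like pattern of values. Of 17 nuclear cytochrome oxidase genes (Cox4 to Cox8 names), 14 were higher in naïve and 15 in RS mice, with medians of 0.84 and 1.52 and 0 lower. Of 78 mitochondrial ribosomal protein genes 45 and 53 were higher and 12 and 9 lower (medians 0.28 and 0.51), and of 83 cytosolic ribosomal protein genes 55 and 73 were higher and 6 and 2 lower (medians 0.44 and 1.04). In RS input they were lower in 14 of 17, 45 of 78 and 76 of 83, so the direction seen in the members was not particular to them. Subunits encoded in mitochondrial DNA were not analysed here.

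The start regions were searched for 4 motifs known from nuclear mitochondrial genes. Both strands were searched from 250 bases before to 50 after the RefSeq start (GRCm38.p6, first listed start). Promoters were matched for 56 members. The NRF1 core TGCGCANGC was in 11 of them (19.6%), against 4.33% of 27025 genes with a promoter and 8.26% of the 11208 among them that were tested. The ETS (GABPA) motif CCGGAAG was in 12 (21.4%, against 9.12% and 16.9%), the YY1 motif AAGATGGC in 9 (16.1%, against 2.88% and 4.39%), and the Sp1 box GGGCGG in 23 (41.1%, against 35.9% and 62.7%).

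Of the 11 members with the NRF1 core, 6 were higher and 2 lower in naïve mice and 8 and 2 in RS mice, and of the 45 without it 38 were higher and 4 lower and then 39 and 4. Of the 12 with the ETS motif 11 were higher and 0 lower in each condition, against 33 and 6 and then 36 and 6 of the 44 without it. Of the 9 with the YY1 motif 8 were higher and 1 lower in each, and of the 23 with the Sp1 box 17 and then 19 were higher and 2 lower in each. These counts are descriptions with no test. To show both kinds of member side by side, the 250 bases before the start are given for 2 that rose (Atp5e, chr2:174464102-174464351, minus strand; Uqcr10, chr11:4704345-4704594, minus strand) and 2 that fell (Sdha, chr13:74350241-74350490, minus strand; Atp5b, chr10:128083057-128083306, plus strand), each 5′ to 3′ in the direction of the gene, with motif letters in capitals.
Atp5e: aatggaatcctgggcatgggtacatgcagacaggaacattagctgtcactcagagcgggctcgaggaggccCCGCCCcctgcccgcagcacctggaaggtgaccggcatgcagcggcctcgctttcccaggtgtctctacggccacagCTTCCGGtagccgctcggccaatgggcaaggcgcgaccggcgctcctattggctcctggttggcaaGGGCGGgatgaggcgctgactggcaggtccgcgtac
Uqcr10: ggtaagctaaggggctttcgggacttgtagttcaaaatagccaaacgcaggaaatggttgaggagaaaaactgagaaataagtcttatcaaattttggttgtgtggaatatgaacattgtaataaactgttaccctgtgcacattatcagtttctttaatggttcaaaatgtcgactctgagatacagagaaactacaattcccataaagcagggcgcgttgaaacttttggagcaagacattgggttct
Sdha: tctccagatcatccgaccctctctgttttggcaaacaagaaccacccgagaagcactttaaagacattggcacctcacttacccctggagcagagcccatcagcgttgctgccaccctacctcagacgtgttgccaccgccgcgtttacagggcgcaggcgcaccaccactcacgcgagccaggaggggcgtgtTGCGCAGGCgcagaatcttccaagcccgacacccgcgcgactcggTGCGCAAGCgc
Atp5b: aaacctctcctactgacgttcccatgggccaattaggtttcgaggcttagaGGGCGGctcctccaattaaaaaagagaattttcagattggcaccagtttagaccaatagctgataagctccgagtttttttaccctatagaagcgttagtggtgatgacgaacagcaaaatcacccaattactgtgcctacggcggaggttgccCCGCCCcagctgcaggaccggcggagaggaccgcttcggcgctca
Atp5e holds an ETS motif at -102 from the start and Sp1 boxes at -179 and -36, Sdha NRF1 cores at -56 and -11, Atp5b Sp1 boxes at -199 and -45, and Uqcr10 none of the 4. No match overlapped another. A match is a run of letters and not a measured binding site.

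Markers of other cells moved with these comparisons. In IP, all 7 blood genes (haemoglobins and Alas2) were higher in naïve and 6 of 7 in RS mice, with sums of 802 and 817 TPM in naïve input, 726 and 842 in RS input, 5499.8 and 5692 in naïve IP, and 4759.7 and 4873 in RS IP. All 7 oligodendrocyte genes were lower in IP in both conditions, with sums of 6609.9 to 8589.6 TPM in input and 2426 to 2644 in IP, and the 7 neuronal genes were mixed (3 higher and 2 lower in naïve, 2 and 3 in RS mice, but 5 and 1 and then 6 and 1 under the other scaling, with sums of 3609 to 4452 TPM over all libraries). In RS mice the 7 choroid plexus genes summed to 285 and 337 TPM in input and 2072 and 2086 in IP, against 21.6 and 23.7 and 41.3 and 43.0 in naïve mice. Most of the RS sums was Ttr, at 259 and 309 TPM in input and 2009 and 2029 in IP. Under the other scaling 4 of the 7 were called higher in RS than in naïve input, and 5 in IP. The part of these cells in the members' values was not tested.

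Of the remaining lists, astrocyte genes were 3 higher and 2 lower of 6 in IP in both conditions, microglial genes 0 higher and 3 then 5 lower of 6, ependymal genes 4 lower of 5 in both, meningeal genes 4 higher of 5 tested in both, and endothelial genes 0 called of 3 tested. Under the other scaling microglial genes were 1 higher and 1 lower in naïve and 1 and 3 in RS mice, ependymal genes 0 and 1 and then 1 and 1, and endothelial genes 0 called in naïve and 2 higher in RS mice, while astrocyte genes were 3 and 1 in both. The immediate early genes Fos, Fosb, Npas4 and Arc summed to 128 and 139 TPM in naïve input, 245 and 276 in RS input, 83.4 and 85.9 in naïve IP, and 263 and 275 in RS IP. Npas4 did not rise, with 19.9 and 17.8 TPM in naïve input, 16.9 and 10.2 in RS input, 7.21 and 8.90 in naïve IP, and 7.19 and 8.69 in RS IP. Under the other scaling 3 of the 4 were called higher in RS than in naïve mice in each fraction. Each library summed to 1000000 TPM with 17292 to 17516 genes above 0. Read depth is unknown, because TPM keeps no counts.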

How the data were processed

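RNA-seq of input and pS6-precipitated RNA was analysed from 8 libraries, grouped by the labels. The deposited values were TPM (length-scaled shares of each library): the authors named the columns FPKM, but every column summed to 1000000. Per the labels the authors used STAR, DESeq2 and mm10, whereas the methods name TopHat and Cufflinks, and which made these columns is not stated. Of 24972 listed symbols 26 had been turned into dates and were left out (0.148% to 0.283% of TPM). Genes with at least 1 TPM in at least 2 libraries were kept (14365), log2(TPM + 1) was fitted with limma 3.58.1 (R 4.3.3) over all 4 groups with eBayes and a mean-variance trend, and p-values were adjusted over all genes (Benjamini-Hochberg, 0.05). The pseudocount of 1 understates changes of low genes. The script was tested on simulated data. Members and lists were chosen with earlier results of these data known. Members named with values were the 3 most positive and 3 most negative per complex in each IP comparison, the 5 largest statistics per direction elsewhere, all of complexes II and III and the complex I core, the c-subunit genes and the misnamed symbols, and 42 were named by that rule; further members, named to complete a group, were chosen after their values were seen. Input and IP of 1 pool number share a header number, and input RNA was saved before the precipitation, so pools pair by design; yet their pool differences correlated at -0.06 (naïve) and -0.05 (RS). Gene lengths, GC and coding sequences came from GENCODE M21 (GRCm38), promoters from RefSeq GRCm38.p6. Alternatives were other pseudocounts, filters and scalings, fewer libraries, a replicate block, a length and GC correction (by transcript length), and no trend. Values of 1 member are counted in the totals but not reported here by name.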

Additional observations from a re-analysis of the deposited data

Results flagged for a closer look

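The difference between RS and naïve mice in the change of IP against input was itself past the threshold for 33 members (limma interaction, adjusted over all genes), and among the members named for it the difference was 0.76 for Atp5j2, 0.63 for Ndufc1, 0.61 for Uqcr11, 0.41 for Atp5h and 0.49 for Uqcrq on the log2 scale. All of these were positive, and in each the IP levels of both conditions lay close together while the input was lower in RS mice. The count depended on single libraries and became 1 with a replicate block, where 0.355% of all genes were called positive. The cause was not tested.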

How the results depend on the processing

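With 2 pools per group and no read counts, the depth behind each value is unknown and a lone pool is assumed to vary like the others. The counts of members higher in IP kept within 1.5 times of those reported under every alternative, at 48 to 57 in naïve and 49 to 58 in RS mice. Median-of-ratios scaling moved the median of all genes by 0.32 in naïve and 0.43 in RS mice, called 30.9% of all genes higher and 28.7% lower in naïve mice and 33.4% and 31.2% in RS mice, and left 7 members lower in naïve and 3 in RS mice; for RS against naïve input it called 7.92% of all genes higher and 12.3% lower, and 1 member higher. The members' median less that of all genes in naïve IP against input was 0.97 with a pseudocount of 0.1, 0.79 with 5, 0.75 without a filter, 0.98 with median-of-ratios scaling and 0.47 with the length and GC correction. For RS it was 1.21 with a pseudocount of 5, 1.16 without a filter and 0.61 with the length and GC correction, and from 1.27 to 1.49 when libraries were left out in turn. For the interaction, members called higher numbered 4 without a filter, 1 with the replicate block, 4 with the length and GC correction, 0 without the trend, and 0 to 44 leaving out libraries, with 0 to 1 called lower; the difference of medians was 0.13 with the length and GC correction and 0.37 to 0.57 leaving out libraries. Of all genes, 0.624% were called positive in the interaction without a filter and 0.355% with the replicate block. With the length and GC correction it was 1.09%, and without the trend 0.167%. The replicate block changed no other count of members. For RS against naïve in IP, leaving out libraries gave 0 to 2 higher and 0 to 3 lower. For RS against naïve in input, members higher numbered 3 with the own 4 libraries, 2 with the length and GC correction, 2 without the trend and 2 to 5 leaving out libraries, 28 were lower with the length and GC correction, and the difference of medians was -0.17 with that correction and -0.46 to -0.64 leaving out libraries.

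Of the members called under either setting, signs turned under median-of-ratios scaling for Ndufa9 (0.13 in naïve, 0.28 in RS mice), Ndufv1 (0.11 in naïve, 0.071 in RS mice), Sdhc (0.13 and 0.44), Sdhd (0.37 in naïve), Uqcrfs1 (0.24 and 0.50) and Ndufa10 (0.047 in RS mice) in IP against input. Under the length and GC correction they turned for Ndufs7 (-0.00202 and -0.036), Sdhc (0.19 and 0.52), Sdhb (-0.041 in RS mice), Ndufa8 (-0.13 in RS mice), Ndufs5 and Ndufb8 in the interaction (-0.094 and -0.042), and Ndufs3, Ndufa12 and Ndufb10 in RS against naïve input (0.000700, 0.13 and 0.040). The cause was not tested.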
